A study of Pelodiscus sinensis with 18 samples.

Results

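The genes described here are somatostatin and 6 other genes of gut hormone cells or gut peptides in the Chinese soft-shelled turtle, Pelodiscus sinensis. They were taken by name from a list of SST, CCK, GCG, CHGA, NEUROD1, PDYN and the feature LOC102460033, and all 7 were found among the 24880 features of the expression table. LOC102460033 carries the symbol GUCA2A in the RefSeq annotation and is called GUCA2A below. Bulk RNA was sequenced from the liver and the gut of turtles labelled as wild type. In each tissue 3 libraries came from turtles of the control group (control), 3 from turtles kept with 10 µg/L niclosamide (nic10) and 3 from turtles kept with 50 µg/L (nic50). Niclosamide kills tapeworms in patients and snails in ponds and fields. The labels do not say which stretch of gut was taken, how long the exposure lasted, or whether each library is a turtle of its own.

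Enteroendocrine cells are scattered hormone-secreting cells of the gut lining. In mammals each kind stores its peptides in dense granules and releases them in response to food. Somatostatin, made by SST, restrains the release of other hormones and of digestive secretions. Cholecystokinin, made by CCK, acts on the gallbladder and the pancreas. GCG encodes the precursor of glucagon in pancreatic islets and of glucagon-like peptides in the gut. CHGA encodes chromogranin A, a protein of the hormone granule, and NEUROD1 is a transcription factor of endocrine and nerve cells. PDYN encodes prodynorphin, an opioid precursor known mostly from the nervous system. GUCA2A encodes guanylin, a peptide that the gut lining secretes to act on the receptor GUCY2C and on salt and water transport.

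The values are FPKM (fragments per kilobase, made relative to the total of each library), so levels are per length and can be set beside each other between genes. Sequencing depth behind them is unknown. FPKM sums were 588542 to 699273 in liver and 677583 to 753840 in gut, and 9440 to 10839 features in liver and 11534 to 12340 in gut reached an FPKM of 1. Some libraries stood unusually close together: the 3 nic50 livers correlated at 0.994 to 0.996 and control livers 2 and 3 at 0.995, against 0.965 to 0.984 among nic10 livers (Pearson r of log2(FPKM + 1) across features). Gut nic10 library 2 stood apart from libraries 1 and 3, with r of 0.965 and 0.969 against 0.985 between the other two. Results that rest on these libraries are also given with the alike livers averaged or with libraries left out. The tissue labels went with their markers: 8 of 8 tested hepatocyte markers were higher in control livers than in control guts, and 14 of 15 enterocyte markers were lower (limma, adjusted p under 0.05).

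In gut, 6 of the 7 genes were above 1 FPKM in every control library, and which cells made them was not tested. In control guts the mean levels fell in the order GUCA2A (391 FPKM), CHGA (94.1), GCG (32.5), SST (28.0), CCK (15.8), NEUROD1 (2.66) and PDYN (0.0916). The ranges of GCG and SST overlapped, as did those of SST and CCK, while every other pair of neighbours in that order was apart. GUCA2A ranked 206th of 24880 features by mean FPKM in control guts, and CHGA ranked 754th. PDYN did not mark this gut: it was at 0.164 FPKM or less in all 9 gut libraries.

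Unexposed livers held little of these transcripts apart from GUCA2A, which ranked 4910th of 24880 features by mean FPKM in control livers. GUCA2A was at 7.22 ± 0.861 FPKM in control livers and 391 ± 137 FPKM in control guts (SD, n = 3 each), a log2 difference of -5.51 (SE 0.38, limma adjusted p = 3.37e-09). SST was listed at 0, 0.799 and 0.708 FPKM in control livers, against 38.9, 19.9 and 25.3 FPKM in control guts, with a log2 difference of -4.27 (SE 0.35, limma adjusted p = 3.4e-08). CHGA was the furthest below gut, with a log2 difference of -6.51, and the differences of GCG, CCK and NEUROD1 were -4.70, -3.61 and -1.87. All log2 values here and below are differences of log2(FPKM + 1), which understate the change of low genes. In this comparison 6 of the 7 genes were lower in liver and PDYN was not called (adjusted p = 0.452), where 51.5% of all 13475 genes tested were lower. The split over all genes, 1700 higher and 6934 lower in liver with a median log2 difference of -0.58, turned to 3387 and 3419 with a median of -0.01 when libraries were rescaled by trimmed means. With quantile normalization it was 3064 and 3697. The same 6 genes were lower under both. In control livers the order of levels was GUCA2A, then SST, and the ranges of the genes from SST down overlapped from neighbour to neighbour.

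The liver then changed differently at each dose. At nic10, SST rose and GUCA2A fell. At nic50, PDYN rose, GUCA2A did not pass the test against control, and SST lay between its control and nic10 levels. CHGA, CCK and NEUROD1, which mark the gut's hormone cells, stayed at 0.134 FPKM or less in all 9 livers. Of the 7 genes, 3 reached an FPKM of 1 in at least 3 livers and were tested. SST and PDYN did so through exposed livers alone, so they could be tested only because those livers were high.

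SST in liver was listed at 0, 0.799 and 0.708 FPKM in controls, at 11.7, 8.36 and 8.76 FPKM at nic10 and at 1.34, 2.46 and 1.60 FPKM at nic50. Every nic10 liver was above every nic50 liver, and every nic50 liver was above every control. The nic10 livers held levels near those of the nic10 guts, which had 8.48, 6.50 and 11.4 FPKM. The log2 difference was 2.86 at nic10 against control (SE 0.26, limma adjusted p = 0.00107) and -1.93 at nic50 against nic10 (SE 0.26, adjusted p = 0.00392). At nic50 against control it was 0.92 (SE 0.26) and did not pass (adjusted p = 0.0735). The nic10 rise passed under all 15 other settings that could test it, with log2 values of 2.49 to 4.53, the highest with a pseudocount of 0.1. The difference at nic50 against nic10 did not pass with that pseudocount (adjusted p = 0.112) or with the alike livers averaged (adjusted p = 0.385). At nic50 against control SST passed with library weights (0.72, adjusted p = 0.004). Those weights called 4094 of 10892 genes in that comparison, against 513 in the main fit. With a covariate for a set of features present in only some libraries the difference was 1.46. Among livers that set was present in controls 2 and 3 alone, so the fit compares with control 1, where SST was 0. In bulk tissue, a change in the number of SST cells and a change in SST RNA per cell cannot be told apart.

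PDYN was listed at 0 in every control liver, at 0, 0.0279 and 0 FPKM at nic10, and at 2.08, 3.36 and 2.34 FPKM at nic50. The nic50 livers thus stood alone, with no overlap with any of the other 15 libraries of either tissue. The difference on the log2(FPKM + 1) scale was 1.83 at nic50 against control (SE 0.17, limma adjusted p = 0.000633) and 1.82 at nic50 against nic10 (SE 0.17, adjusted p = 0.000628). It was 0.01 at nic10 against control (adjusted p = 0.99). With the closely alike livers averaged, which leaves nic50 with 1 value assumed to vary like the other groups, the nic50 difference from control was 1.83 with an adjusted p of 0.16, and that from nic10 had an adjusted p of 0.105. Without any 1 nic50 liver PDYN was in too few libraries at 1 FPKM to be tested. The other 7 genes of the opioid list, which holds the precursors PENK, POMC and PNOC and the receptors OPRK1, OPRM1, OPRD1 and OPRL1, were listed at 0 in all 9 livers. OPRK1, the main dynorphin receptor in mammals, was among them.

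GUCA2A moved the other way at the low dose. It was at 6.43, 7.10 and 8.14 FPKM in control livers, at 1.28, 2.37 and 0.206 FPKM at nic10, and at 7.76, 8.0 and 7.41 FPKM at nic50. The nic10 livers lay below all the others, and control and nic50 livers overlapped. The log2 difference was -1.96 at nic10 against control (SE 0.31, limma adjusted p = 0.0195), 2.05 at nic50 against nic10 (SE 0.31, adjusted p = 0.00756) and 0.09 at nic50 against control (adjusted p = 0.903). The fall at nic10 passed under 9 of 16 other settings, with adjusted p of 0.00137 to 0.268, and the call was lost without control 2 (-1.97, adjusted p = 0.0825) or without control 3 (-1.89, adjusted p = 0.0868). With the alike livers averaged, the adjusted p was 0.268 at nic10 against control and 0.52 at nic50 against nic10. The call at nic50 against nic10 was also lost without nic50 library 1, 2 or 3 (adjusted p of 0.0525 to 0.0554).

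GCG stayed under 1 FPKM in every liver and was not tested with the filter in place. It was at 0, 0.376 and 0.125 FPKM in controls, at 0.124, 0.115 and 0 FPKM at nic10 and at 0.952, 0.731 and 0.777 FPKM at nic50. The nic50 livers were above all the others. With no filter the log2 difference was 0.65 at nic50 against control (limma adjusted p = 0.0337) and 0.75 at nic50 against nic10 (adjusted p = 0.0254). SST and GCG therefore were not highest in the same livers.

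**Figure D1:**
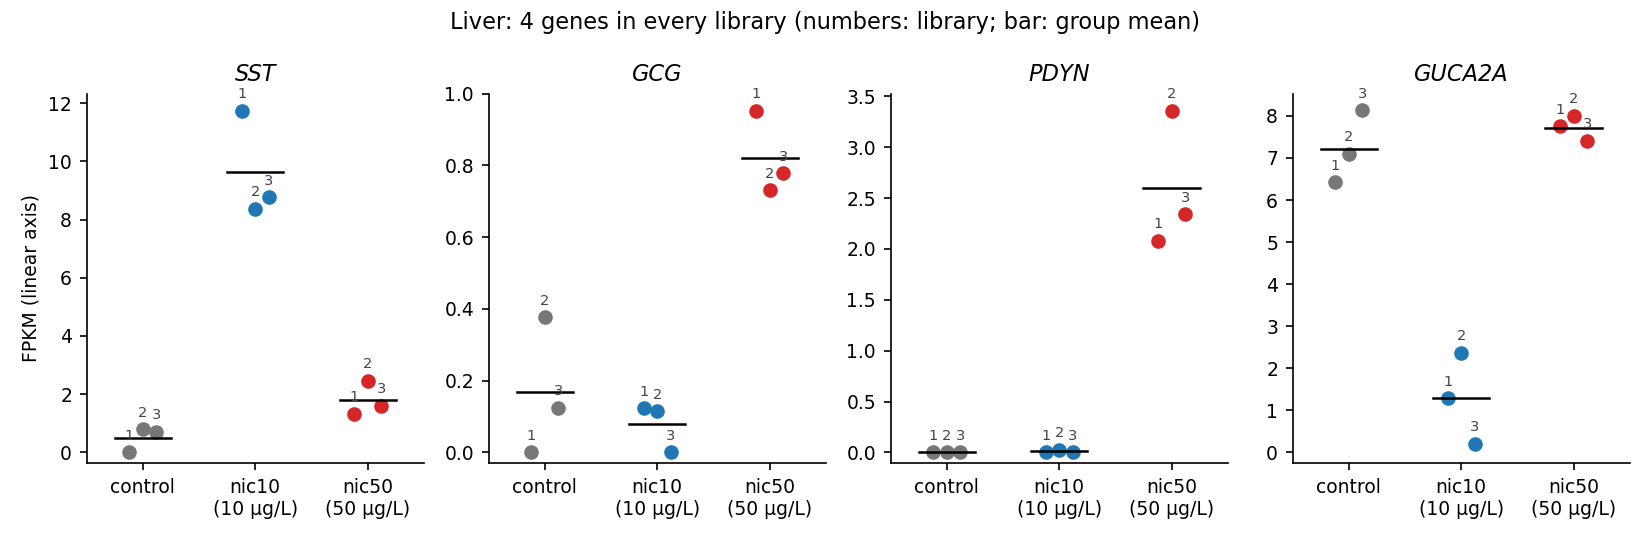
FPKM on a linear axis of SST, GCG, PDYN and GUCA2A in each of the 9 livers, by niclosamide dose; numbers give the library and bars the group mean. SST is highest at nic10 (8.36 to 11.7 FPKM), PDYN and GCG are highest at nic50, and GUCA2A is lowest at nic10 (0.206 to 2.37 FPKM).

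Read against all genes, the liver calls were as follows. At nic10 against control 1 of the 7 genes was higher and 1 lower, where 0.734% and 0.331% of 10892 genes tested were. At nic50 against control 1 was higher and 0 lower, where 3.69% and 1.02% of genes were, and 2 of the 3 tested genes were past an unadjusted p of 0.05, where 20.4% of all genes were. At nic50 against nic10, 2 were higher and 1 lower, where 1.79% and 0.744% of genes were. The split over all genes depended on the scaling. At nic10 it was 80 higher and 36 lower, against 59 and 48 with trimmed means and 63 and 62 with quantiles. At nic50 against control it was 402 and 111, against 226 and 171 and then 286 and 221. At nic50 against nic10 it was 195 and 81, against 165 and 108 and then 234 and 152. The calls among the 7 genes were the same under both. Library ranges that do not overlap are common here, at 13.8% of genes at nic10 against control, 35.6% at nic50 against control and 28.7% at nic50 against nic10.

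The endocrine markers INS (insulin), IAPP (islet amyloid polypeptide), SLC30A8, NKX6-1 and PAX6 were listed at 0 in all 9 livers. Of the transcription factors of hormone cells, NEUROG3, PAX4, NKX2-2, ISL1, RFX6, LMX1A and LMX1B were also at 0 in every liver. IAPP and NKX6-1 were at 0 in every gut as well. The part of islet or other hormone cells in the SST result was not tested.

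Markers of the exocrine pancreas moved with the nic10 livers in part. The 10 acinar markers found summed to 46.9, 107 and 224 FPKM at nic10, against 30.7, 40.7 and 39.7 FPKM in controls, and nearly all of it was AMY2A, an amylase (log2 1.45, adjusted p = 0.169). PNLIP, CELA1, SYCN, CLPS and PTF1A, further acinar markers, were listed at 0 in all 9 livers. SYCN and PTF1A were at 0 in every gut as well. The acinar list held 21 symbols, and those with no matched feature included CPA1, CPB1, CTRB1 and PRSS1. BHLHA15, a transcription factor of secretory cells, was at 2.66, 2.71 and 6.51 FPKM at nic10, against 1.17, 0.205 and 0.355 FPKM in controls (log2 1.62, SE 0.31, limma adjusted p = 0.0354). BHLHA15 passed the filter through the nic10 livers, and its call passed under 4 of 15 other settings. At nic50, where SST was lower than at nic10, BHLHA15 was too (log2 -1.92, adjusted p = 0.00995). The part of such cells in the SST result was not tested.

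Nerve markers moved in the livers where PDYN was high, but not together. Their sum over 18 genes was 24.5 to 32.6 FPKM at nic50 and 14.1 to 17.8 FPKM in controls, and 21.6 to 25.3 FPKM at nic10, where PDYN stayed near 0. Most of each nic50 sum was HAND2, at 15.23 to 23.06 FPKM, against 4.202 to 7.942 FPKM in controls. At nic10 HAND2 was at 6.415 to 15.79 FPKM. The sums therefore say little about the other nerve markers. At nic50 against control, UCHL1, a ubiquitin hydrolase abundant in neurons, rose (log2 2.09, SE 0.21, limma adjusted p = 0.000747), as did the transcription factor HAND2 (1.47, SE 0.32, adjusted p = 0.0276), though HAND2 passed in 0 of 6 fits without 1 library. UCHL1 also rose at nic10 (log2 1.44, SE 0.21, adjusted p = 0.0127), where PDYN was near 0. UCHL1 was under 1 FPKM in every control liver and so could be tested only because exposed livers were high. RET, a receptor of enteric neurons, fell (-2.37, SE 0.29, adjusted p = 0.0015). The neuronal tubulin TUBB3 was at 2.32 to 6.30 FPKM in livers of every dose group (log2 -0.20 at nic50 against control, adjusted p = 0.755). The neurofilament gene NEFM was at 0.326, 0.365 and 0 FPKM at nic10 and at 0.250, 0.114 and 0.112 FPKM at nic50. In controls NEFM was at 0.045, 0 and 0 FPKM, and it was too low to be tested. The neuronal genes SNAP25, PHOX2A and CHAT were at 0 in every liver. The part of nerve cells in the PDYN result was not tested.

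The genes whose liver profile was most like that of SST, by Pearson r of log2(FPKM + 1) over the 9 livers, were ADAMTS15 (r = 0.954), CD55 (0.936) and MARCKSL1 (0.932). ADAMTS15, a matrix-cleaving protease, was at 1.37, 1.11 and 1.49 FPKM at nic10, against 0.210, 0.217 and 0.360 FPKM in controls. For GUCA2A they were CPB2 (0.977), PRSS55 (0.968) and DHRS7 (0.958). CPB2, a carboxypeptidase that hepatocytes release into plasma, was at 194, 248 and 151 FPKM at nic10, against 351, 302 and 335 FPKM in controls. PDZK1, a scaffold of membrane transporters on the guanylin list, was at 12.3, 22.4 and 7.29 FPKM at nic10, against 9.33, 32.5 and 37.1 FPKM in controls (log2 -0.79, adjusted p = 0.526), so control 1 lay among the nic10 values. GUCY2C, the guanylin receptor, was at 0.132 FPKM or less in every liver.

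In the gut SST lay the other way: it was lower in the exposed libraries, and CCK with it, but no gene of the 7 passed the test. Of the 7, 6 were tested there. At nic10 against control 0 were called by limma and 2 (SST and CCK) were past an unadjusted p of 0.05, where 0.174% of 12617 genes were called (10 higher and 12 lower, or 4 and 10 with trimmed means) and 14.9% were past the unadjusted p. At nic50 against control 0 were called and 3 (SST, CCK and NEUROD1) were past the unadjusted p, where 0.0238% and 6.50% of all genes were. The differences below are therefore given with their values and not as changes.

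CCK had the widest gap. It was at 34.1, 8.08 and 5.19 FPKM in control guts, at 0.133, 0.299 and 0.367 FPKM at nic10 and at 1.67, 5.68 and 0.512 FPKM at nic50. All nic10 guts lay below all nic50 guts and all controls, while 1 nic50 gut was within the control range. Relative to the control mean, the mean was 59.3-fold lower at nic10 and 6.03-fold lower at nic50. The log2 difference was -3.31 at nic10 (SE 0.67, limma adjusted p = 0.13) and -2.06 at nic50 (SE 0.67, adjusted p = 0.637). Control library 1 held most of the control mean, and controls varied among themselves, with a mean of 15.8 ± 15.9 FPKM (SD, n = 3).

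SST in gut was at 38.9, 19.9 and 25.3 FPKM in controls, at 8.48, 6.50 and 11.4 FPKM at nic10 and at 12.4, 19.5 and 5.89 FPKM at nic50. Neither exposed group reached the lowest control, though nic50 library 2 came close to it. Means were 8.78 ± 2.44 FPKM at nic10 and 28.0 ± 9.81 FPKM in controls (SD, n = 3 each), with a log2 difference of -1.55 (SE 0.40, limma adjusted p = 0.197). At nic50 the mean was 12.6 ± 6.81 FPKM and the log2 difference -1.18 (SE 0.40, adjusted p = 0.66). With weights for the quality of each library, both genes passed at nic10, SST at -1.28 (adjusted p = 0.0466) and CCK at -3.25 (adjusted p = 0.0174). Those weights called 746 of 12617 genes at nic10, against 22 in the main fit. No fit without 1 library called SST or CCK at nic10.

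SST and CCK varied together over the 9 guts, with r of 0.93 on the log2(FPKM + 1) scale, which is a description of libraries that share their dose groups. Neither followed CHGA, with r of 0.23 for SST and -0.02 for CCK. Set against CHGA in the same library, SST was 0.0392 to 0.151 of its FPKM at nic10 and 0.206 to 0.432 of it in controls. For CCK the share of CHGA was 0.000612 to 0.00695 at nic10 and 0.0422 to 0.379 in controls. The nic10 and control groups did not overlap in either share. At nic50 SST was 0.151 to 0.379 of CHGA and CCK 0.0131 to 0.110 of it, and both overlapped the controls.

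GCG and CHGA were spread widely at nic10, in opposite libraries. GCG was at 39.8, 13.9 and 43.9 FPKM in controls, at 6.15, 55.0 and 20.6 FPKM at nic10 and at 25.1, 25.9 and 22.2 FPKM at nic50. CHGA was at 90.0, 69.2 and 123 FPKM in controls, at 217, 43.1 and 132 FPKM at nic10 and at 44.3, 51.5 and 39.1 FPKM at nic50. Gut nic10 library 2, which stood apart, was the highest of all 9 guts for GCG and below every control for CHGA, and library 1 was the lowest for GCG and the highest for CHGA. The log2 differences at nic10 were -0.55 for GCG (SE 0.67, limma adjusted p = 0.708) and 0.23 for CHGA (SE 0.50, adjusted p = 0.842). Without nic10 libraries 1 and 3 they turned to 0.90 and -1.07.

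At nic50 the CHGA and NEUROD1 levels were below all controls. CHGA averaged 44.9 ± 6.23 FPKM at nic50 and 94.1 ± 27.1 FPKM in controls (SD, n = 3 each), with a log2 difference of -1.02 (SE 0.50, limma adjusted p = 0.787). NEUROD1 was at 2.16, 2.74 and 3.10 FPKM in controls, at 2.85, 2.57 and 2.64 FPKM at nic10 and at 1.94, 1.97 and 1.28 FPKM at nic50, a log2 difference of -0.43 at nic50 (SE 0.18, adjusted p = 0.736). With SST, 3 of the 6 tested genes lay wholly below the controls at nic50, where 7.56% of all genes did, and 2 (SST and CCK) did at nic10, where 6.38% did. At nic50 against nic10 limma called 0 of the 6, where 0.119% of genes were called (3 higher and 12 lower, or 5 and 8 with trimmed means), and 2 (CHGA and NEUROD1) were past an unadjusted p of 0.05, where 14.2% of genes were. CHGA had a log2 difference of -1.25 there (SE 0.50, adjusted p = 0.31) and passed without nic10 library 2 (-1.90, adjusted p = 0.0154).

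GUCA2A, the most abundant of the 7 in gut, was at 431, 503 and 238 FPKM in controls, at 145, 228 and 279 FPKM at nic10 and at 434, 168 and 314 FPKM at nic50. The groups overlapped, with log2 differences of -0.83 at nic10 (SE 0.40, limma adjusted p = 0.368) and -0.39 at nic50 (SE 0.40, adjusted p = 0.907). Its receptor GUCY2C was at 13.4 to 26.6 FPKM over the 9 guts, and of the 5 tested genes of the guanylin list none was called by limma at either dose, nor past an unadjusted p of 0.05. The genes most like GUCA2A over the guts were LONRF1 (r = 0.959), UCK2 (0.951) and ETV5 (0.914), and those most like SST were SRGN (0.958), STRA6 (0.952) and RGS18 (0.950). SRGN, which encodes a granule proteoglycan of blood cells, was at 42.1, 28.9 and 40.0 FPKM at nic10, against 103, 52.6 and 81.3 FPKM in controls.

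**Figure D2:**
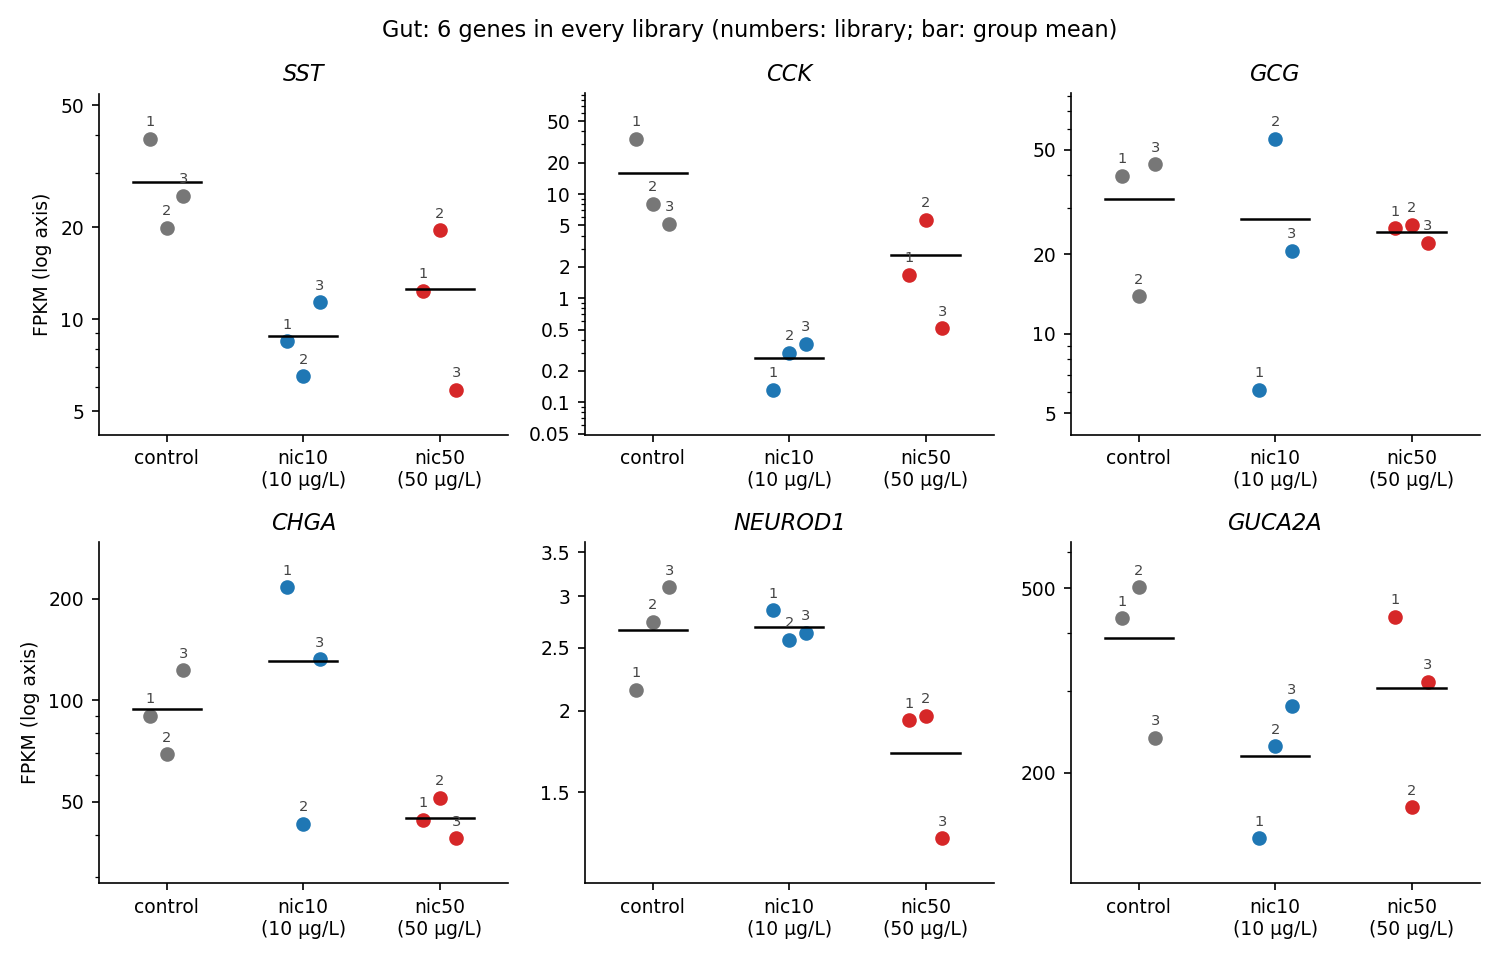
FPKM on log axes of SST, CCK, GCG, CHGA, NEUROD1 and GUCA2A in each of the 9 guts, by niclosamide dose; numbers give the library and bars the group mean. CCK at nic10 (0.133 to 0.367 FPKM) and SST at both doses lie below every control, and CHGA and NEUROD1 do so at nic50, while GCG and GUCA2A overlap.

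Whether the changes in liver and gut differed in size was tested in 1 fit of all 18 libraries. For SST at nic10 the liver change minus the gut change was 4.40 on the log2 scale (SE 0.50, limma adjusted p = 0.000323), and it passed under all 23 other settings, at 3.76 to 6.17. Every nic10 liver was above every control liver, and every nic10 gut was below every control gut, though the gut difference by itself did not pass. At nic50 the difference was 2.10 (SE 0.50, adjusted p = 0.0598), and it passed without gut nic50 library 2 (2.47, adjusted p = 0.0247). For PDYN the difference between tissues at nic50 was 1.79 (SE 0.20, adjusted p = 0.000416), and it passed under all 18 other settings that could test it. PDYN entered that fit through the nic50 livers alone, and no setting without one of them could test it. For CCK at nic10 it was 3.36 (SE 0.72, adjusted p = 0.0551), and CCK was at 0.134 FPKM or less in all livers. That difference passed with a pseudocount of 0.1 (adjusted p = 0.0455), with library weights (0.00108), without gut nic10 library 2 (0.0449) and without gut control library 3 (0.0189). The library weights called 1417 of 13475 genes, against 49 in the main fit. For GUCA2A at nic10, lower in both tissues' means, it was -1.14 (SE 0.54, adjusted p = 0.512). Each dose gave 1 call among the 7, both higher, where 0.208% of 13475 genes at nic10 and 0.839% at nic50 were (113 higher and 20 lower at nic50, or 76 and 32 with trimmed means).

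**Figure D3:**
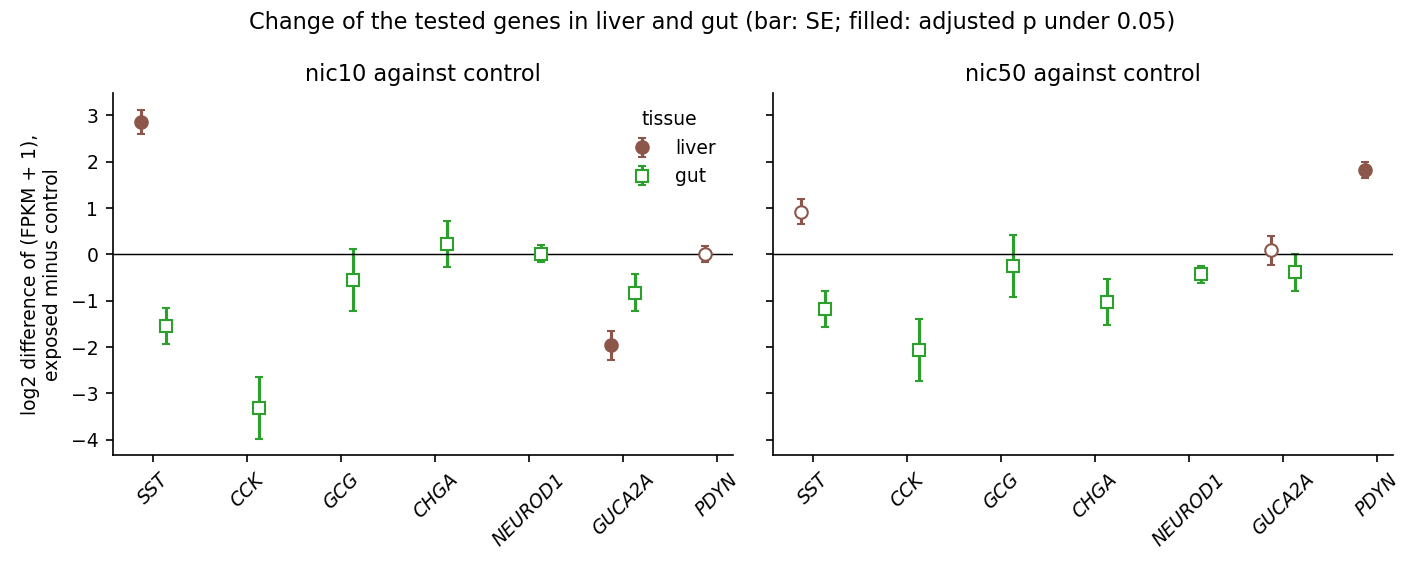
Log2 difference of (FPKM + 1), exposed minus control, at nic10 (left) and nic50 (right) for each tested gene in liver (circles) and gut (squares); bars are SEs and filled symbols have a limma adjusted p under 0.05. SST stands at 2.86 in liver and -1.55 in gut at nic10, and PDYN at 1.83 in liver at nic50; no gut symbol is filled.

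The wider list of gut hormone and secretory genes held 28 symbols, of which 22 were found and 19 tested in gut. At nic10 against control limma called 0 of the 19. Past an unadjusted p of 0.05 were 4 higher and 3 lower, where 14.9% of all genes were past it. The list's median log2 difference was 0.21 beside 0.11 over all genes. At nic50 limma called 0, with 0 higher and 4 lower past the unadjusted p, where 6.50% of all genes were. SST and CCK, which the list shares with the 7 genes, were among the lower ones at both doses. At nic50, 15 of the 19 had a value below 0, and the median was -0.33 beside -0.02 over all genes.

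Gut hormones did not move as a block at nic10. SCT, which encodes secretin, had a profile like that of CCK, with 0.364, 0.181 and 0.412 FPKM at nic10, against 25, 3.33 and 22.6 FPKM in controls (log2 -3.40, SE 0.79, limma adjusted p = 0.169). Neurotensin (NTS) lay the other way, with 302, 249 and 308 FPKM at nic10, against 162, 181 and 86.4 FPKM in controls (log2 1.06, SE 0.34, adjusted p = 0.239). So did TAC1, the precursor of substance P, at 8.15, 4.53 and 5.21 FPKM at nic10, against 1.39, 1.49 and 1.44 FPKM in controls (log2 1.48, SE 0.38, adjusted p = 0.197). At nic50 NTS was at 122, 69.3 and 54.9 FPKM and overlapped the controls (log2 -0.81, adjusted p = 0.736). TPH1, the enzyme of serotonin synthesis in the gut, had its highest nic10 value in the library with most CHGA, at 7.10, 0.787 and 3.42 FPKM at nic10, against 2.82, 1.17 and 3.95 FPKM in controls. SCT, NTS, TAC1 and TPH1 were picked after their values were seen, and none passed.

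**Figure D4:**
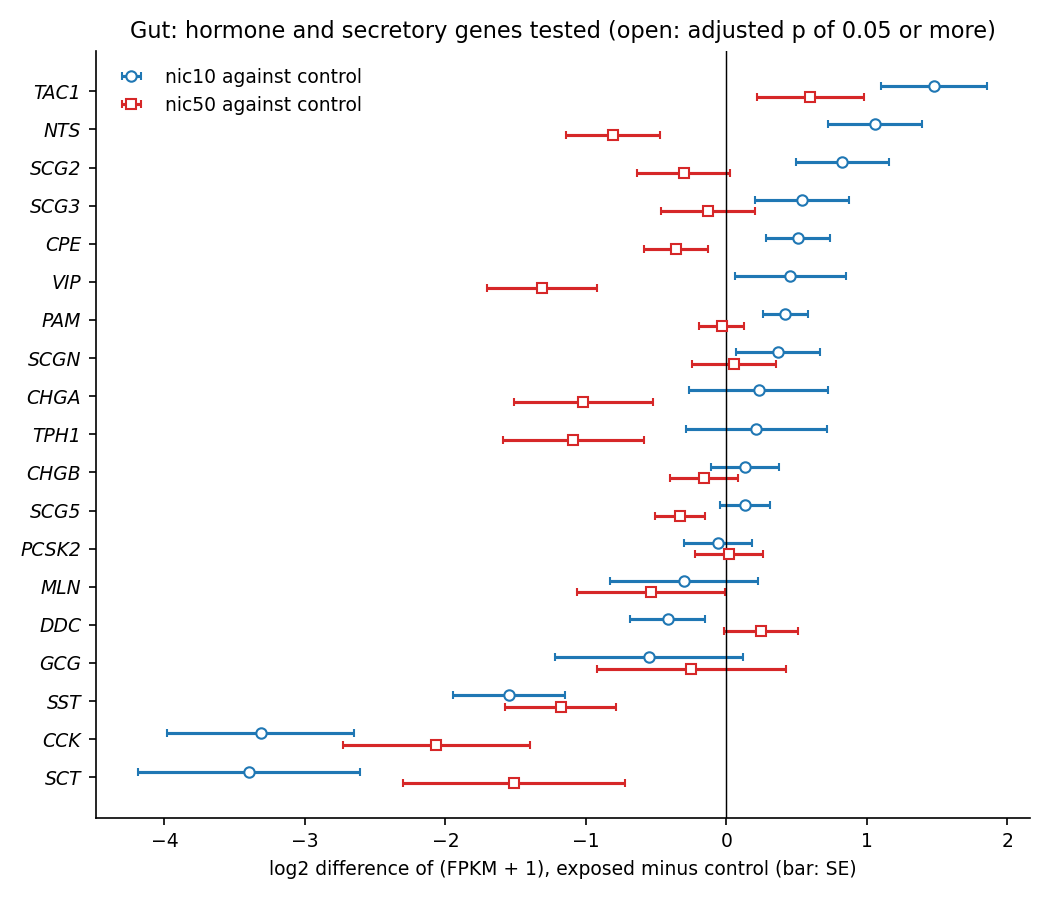
Log2 difference of (FPKM + 1), exposed minus control, with SE bars, for the 19 tested gut hormone and secretory genes in gut at nic10 (circles) and nic50 (squares), ordered by the nic10 value. SCT, CCK and SST have the lowest nic10 values (-3.40, -3.31 and -1.55) and TAC1 and NTS the highest (1.48 and 1.06); all symbols are open, with adjusted p of 0.05 or more.

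Among 10 tested transcription factors of hormone cells in gut, limma called 0 at either dose. Past an unadjusted p of 0.05 were 1 higher at nic10 and 3 lower at nic50, NEUROD1 of the 7 genes among the latter. Over all genes 14.9% at nic10 and 6.50% at nic50 were past it. The median log2 difference of these factors was 0.12 at nic10 (0.11 over all genes) and -0.34 at nic50 (-0.02 over all genes). NKX2-2, a factor that hormone cells need in mice, was at 10.9, 11.4 and 10.3 FPKM at nic10, against 7.81, 8.12 and 11.9 FPKM in controls. A list of hormone receptors had 4 genes tested in gut and 2 in liver. Those of the gut were SSTR1, SSTR5, GUCY2C and GIPR, and the hormone of GIPR is not among the 7 genes. None of the tested receptors was called by limma at nic10 or nic50 against control, and none was past an unadjusted p of 0.05. In liver the somatostatin receptors SSTR1 and SSTR2 were the 2 tested; SSTR1 was at 3.75, 6.72 and 6.72 FPKM at nic10, against 4.06, 3.29 and 3.95 FPKM in controls (log2 0.47, adjusted p = 0.391). CCKAR, the cholecystokinin receptor of the gallbladder and pancreas, was at 0.541 FPKM or less in every library.

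In the liver the same hormone list had 5 tested genes. Beside SST at nic10, CPE, a carboxypeptidase that trims prohormones, rose at nic50 (log2 0.76, SE 0.19, limma adjusted p = 0.0457), with 1.61, 1.74 and 2.28 FPKM at nic50, against 0.445, 0.774 and 0.871 FPKM in controls. CPE reached 1 FPKM in the nic50 livers alone and so could be tested only because they were high. It passed in 0 of the 3 fits without 1 library that could test it. The list's median in liver was -0.08 at nic10 (0.04 over all genes) and 0.45 at nic50 (0.13 over all genes).

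The enkephalin precursor PENK was the tested opioid gene of the gut, at 35.4, 17.8 and 22.9 FPKM at nic10, against 7.46, 11 and 12.7 FPKM in controls (log2 1.18, SE 0.43, limma adjusted p = 0.278). At nic50 it was at 12.4, 3.99 and 15.3 FPKM and overlapped the controls. PENK, NTS and TAC1 are made by gut neurons as well as, for some, by hormone cells. The 18 nerve markers summed to 55.1 to 73.0 FPKM in nic10 guts and 43.7 to 57.6 FPKM in controls. At nic10 limma called 0 of 11 tested markers, with 1 higher past an unadjusted p of 0.05, where 14.9% of genes were. Of these 11, 10 had a log2 difference above 0, with a median of 0.26 beside 0.11 over all genes.

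Markers of the gut lining and wall also differed between these guts. The 15 enterocyte markers summed to 538, 4002 and 1810 FPKM at nic10, against 4223, 3698 and 3706 FPKM in controls. At nic10 their median log2 difference was -1.12 (0.11 over all genes), with 14 of 15 below 0. Limma called 0 of them, with 1 higher (FABP6) and 6 lower past an unadjusted p of 0.05. Over all genes 14.9% were past it. FABP6 was at 154, 241 and 257 FPKM at nic10, against 0, 281 and 0 FPKM in controls. SLC15A1 lay the other way, at 0, 4.80 and 0.0153 FPKM at nic10, against 384, 37.8 and 808 FPKM in controls. Smooth muscle markers summed to 1522, 736 and 1450 FPKM at nic10, against 565, 634 and 1026 FPKM in controls. Glial markers summed to 16.2, 8.60 and 18.5 FPKM, against 5.43, 8.34 and 6.45 FPKM. The nic50 guts also spread widely, with enterocyte sums of 3730, 10160 and 2319 FPKM. Their smooth muscle sums were 913.5, 475.5 and 2729 FPKM, and their glial sums 6.72, 3.81 and 12.4 FPKM. Gut nic10 libraries 1 and 3, low in enterocyte and high in muscle and glial markers, were also those high in CHGA. In library 2 the enterocyte sum lay within the range of the controls, but VIL1, MEP1A, LCT, SLC15A1 and ALPI were each below every control. There FABP2 (458 FPKM) and MEP1B (206 FPKM) were above every control, and ANPEP (1048 FPKM) was barely so. The rest of the 15 lay within the control range. CCK and SST were low in all 3 nic10 guts.

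Of all the listed markers, only the hepatocyte genes FGA and FGG, 2 chains of fibrinogen, were called by limma between exposed and control guts, and both fell. FGG was at 0.192, 0.314 and 0.460 FPKM at nic10 and 0.418, 0.303 and 0.307 FPKM at nic50, against 5.29, 4.60 and 5.08 FPKM in controls (log2 -2.18, adjusted p = 0.00111, and -2.16, adjusted p = 0.00372). FGA had log2 differences of -1.71 (adjusted p = 0.00548) and -1.82 (adjusted p = 0.00649). Both reached 1 FPKM in the control guts alone and so could be tested only because those were high. The hepatocyte list of 8 found markers summed to 89.9 to 154.5 FPKM at nic10 and 87.6 to 141.5 FPKM at nic50, against 115.3 to 154.3 FPKM in controls. Most of each sum was APOB, except in nic10 library 1, where TF held most (61.0 FPKM). The sums therefore say little about the other markers. Of the 6 markers tested in gut, 5 had a log2 difference from control below 0 at nic10 and all 6 did at nic50.

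Pancreatic markers were present in gut. INS was at 14.8 to 56.8 FPKM over the 9 guts, with 19.5, 28.4 and 14.8 FPKM at nic10, against 56.8, 37.2 and 15.5 FPKM in controls. CLPS, the pancreatic colipase gene, was at 0.934, 20.6 and 13.4 FPKM at nic10, against 49.3, 36.8 and 15.3 FPKM in controls. PNLIP was at 0, 5.296 and 0.147 FPKM at nic10, below every control (14.21, 6.085 and 7.205 FPKM). Of 3 acinar markers tested in gut, limma called 0 at nic10. Past an unadjusted p of 0.05 were 0 higher and 2 lower, where 14.9% of all genes were past it. PTF1A, SYCN, CTRL, IAPP and NKX6-1, other markers of the pancreas, were listed at 0 in all 9 guts. The part of epithelium, muscle, nerve, liver and pancreatic tissue in the gut values of SST, CCK and GCG was not tested. Whether the groups differed in the stretch of gut taken, which the labels do not give, was not tested either.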

How the data were processed

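RNA of 18 libraries, from liver and gut of turtles in 3 dose groups, was measured by sequencing after TRIzol extraction, per the labels' protocols. The authors deposited 1 table of FPKM values, per the file headers. CASAVA is named in the submitters' processing notes, with genome build, aligner and counter not given in the sources used here. Low values shared no common step that would mark 1 read, so depth is unknown and no counting interval is given. Of 24880 features, 13455 had a symbol in the table and 975 were named through RefSeq (assembly ASM4963464v1), used for names alone. Columns of other samples numbered 0.

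Log2(FPKM + 1) was fitted with limma 3.58.1 in R 4.3.3 (eBayes with trend), per tissue, or over all 18 libraries for tissue comparisons. A gene entered a fit where 3 or more of its libraries had an FPKM of 1 or more. Tests were two-sided, with Benjamini-Hochberg adjustment over all genes tested in each comparison and a threshold of 0.05. No adjustment was made across comparisons. The fit was run on simulated data for liver nic10 against control, with changes placed only in well expressed genes. That run cannot speak for genes as low as SST and PDYN were in control livers. Nothing in the labels ties libraries to separate animals, so p-values reflect a spread between libraries that may be technical.

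The 7 genes and all lists were chosen with earlier results of these data known. The rule names the 7 genes in every comparison, the 3 genes most correlated with SST and with GUCA2A in each tissue, and up to 4 called genes per list; others named were chosen after their values were seen. Not every called marker between tissues is printed. Some markers of the islet and nerve lists are not reported here. Near-identical copies may share fragments. No sequence of these genes was used here. Alternatives were trimmed-mean and quantile scaling, a pseudocount of 0.1, a mean FPKM of 5 or more, no filter, fits with only the groups compared, library weights, a replicate block, a covariate for 17 features present in 5 libraries, averaged alike livers, and libraries left out.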

Additional observations from a re-analysis of the deposited data

Results flagged for a closer look

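The SST change at nic10 differed between liver and gut by 4.40 on the log2(FPKM + 1) scale (liver change minus gut change, SE 0.50, limma adjusted p = 0.000323). All 3 nic10 livers were above all control livers, and all 3 nic10 guts were below all control guts. The gut change by itself did not pass the test.

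The PDYN change at nic50 differed between liver and gut by 1.79 on the same scale (SE 0.20, limma adjusted p = 0.000416). All 3 nic50 livers were above all control livers, which were listed at 0, and nic50 and control guts overlapped below 0.2 FPKM. PDYN could be tested only because the nic50 livers were high.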

How the results depend on the processing

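The count of the 7 genes past the test at liver nic10 against control, 2 as reported, was 1 with no filter, a pseudocount of 0.1, a mean FPKM of at least 5, only the groups compared, the covariate or alike livers averaged, and 1 to 2 without 1 library. At liver nic50 against control, 1 as reported, it was 2 with no filter, library weights or the covariate, 0 with a mean FPKM of at least 5 or alike livers averaged, and 0 to 1 without 1 library; without any 1 nic50 liver PDYN reached an FPKM of 1 in too few libraries to be tested. At liver nic50 against nic10, 3 as reported, it was 1 with a mean FPKM of at least 5, 0 with alike livers averaged, and 1 to 3 without 1 library. In liver, a mean FPKM of at least 5 left GUCA2A alone to test. Library weights called 4094 of 10892 genes at liver nic50 against control, against 513 in the main fit. In gut the count with library weights was 2 at nic10 and 1 at nic50 against nic10. Over all 12617 genes these weights gave 746 and 478 calls, against 22 and 15 in the main fit. Fits without 1 library gave 0 to 1 of the 7 genes at gut nic50 against nic10. For the difference between tissues the count was 2 at nic10 with a pseudocount of 0.1 or library weights, and 1 to 2 without 1 library. At nic50 it was 0 with a mean FPKM of at least 5, which left PDYN untested. It was 3 there with library weights, and 0 to 2 without 1 library. Over all 13475 genes the weights gave 1417 calls at nic10 and 575 at nic50, against 49 and 133 in the main fit. The count at gut nic50 against control (0) and between control tissues (6, or all 4 tested with a mean FPKM of at least 5) kept to within 1.5 times. Only values that had not passed the test turned their sign. GUCA2A at liver nic50 against control was -0.069 after rescaling by trimmed means and -0.077 after quantile normalization. Without gut nic10 libraries 1 and 3, GCG was 0.90, CHGA -1.07 and NEUROD1 -0.028 at gut nic10 against control, GCG -1.14 and CHGA 0.051 at gut nic50 against nic10, and GCG -0.997, CHGA 1.10 and NEUROD1 0.028 in the difference between tissues at nic10. NEUROD1 at gut nic10 was -0.082 after trimmed means, -0.17 after quantile normalization and -0.19 with the covariate, and CHGA -0.075 with the covariate; in the difference between tissues at nic10, NEUROD1 was 0.09 and 0.16 after these scalings and CHGA 0.005 with a pseudocount of 0.1. Without 1 library, gut nic10 values ran from -1.28 to 0.21 for GCG, -0.27 to 0.88 for CHGA and -0.087 to 0.101 for NEUROD1. Gut nic50 values ran from -0.76 to 0.04 for GCG and -0.45 to 0.40 for PENK, and nic50 against nic10 from -0.46 to 1.03 for GCG. The nic10 difference between tissues ran from -0.31 to 1.17 for GCG, -0.85 to 0.30 for CHGA and -0.101 to 0.087 for NEUROD1. In liver fits against control the covariate left control 1 as the only control level. Apart from what the construction of a setting shows, the cause was not tested. Libraries with the same number varied together weakly at most (9 of 27 pairs had r over 0.1, from -0.288 to 0.257). With 3 libraries a group, this cannot show whether a liver and a gut of the same number share a turtle. With a replicate block the counts of the 7 genes stayed at 2, 1 and 3 in liver and 0 in every gut comparison. They also stayed at 6 between control tissues and 1 in each difference between tissues. Over all genes the liver nic10 count was 76 with the block, against 116 without it. Unknown depth and 3 libraries a group limit the low genes most, above all GCG and PDYN.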
